A study of Homo sapiens with 12 samples.

Results

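Polycomb proteins work in a pair of chromatin complexes that keep genes silent. Polycomb repressive complex 1 (PRC1) attaches ubiquitin to histone H2A, and Polycomb repressive complex 2 (PRC2) methylates histone H3, which leaves the mark known as H3K27me3. BMI1 of PRC1 and SUZ12 of PRC2 have been described in other cells as targets of the miR-200 family, BMI1 of miR-200c and SUZ12 of miR-200b, and EZH2 and BMI1 are known for their roles in stem and tumour cells. The genes described here are BMI1, RING1, RNF2 and CBX2 of PRC1, EZH2, EZH1, SUZ12 and EED of the PRC2 core, and the PRC2 partners JARID2 and PHF19. They were chosen by name, and 9 of the 10 listed genes were measured, by 24 probe sets that name a single one of them, out of 19774 genes and 54715 probe sets on the arrays. RNF2 was not analysed here, because no probe set carries its name in the annotation used. Each gene was read from its brightest probe set, that of highest mean on these 12 arrays.

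The series measured gene expression on 12 Affymetrix U133 Plus arrays in 3 established cell lines, HUTU-80, MDST8 and NCI-H716, which the labels describe as colorectal cancer lines with methylated miR-200 loci. Lentivirus carried the constructs, GFP-positive cells were sorted at 48 hours, and day 7 was the day of RNA extraction. Cells with both clusters, miR-200ba429 cells given miR-200c141 virus 24 hours after the sort, were measured in MDST8 and NCI-H716 (2 arrays). Cells with miR-200ba429 alone were measured in each line (3 arrays), as were cells with miR-200c141 alone (4 arrays, of which 2 are from HUTU-80 and are titled 1:3 and 1:5), and each line has 1 control array. The labels do not give the meaning of the ratio in the titles, what the control cells received or which promoter drives the constructs. Each line is 1 established line, and the labels do not say that arrays came from separate cultures, so p-values measure the spread between these samples, which may be technical.

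The constructs are named for the microRNAs they carry. Their mature sequences are shown because the seed, bases 2 to 8 (in capitals), sets which transcripts a microRNA can pair with. They were taken from RefSeq (GRCh38.p14).
hsa-miR-200c-3p: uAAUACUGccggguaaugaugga
hsa-miR-141-3p: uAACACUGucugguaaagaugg
hsa-miR-200b-3p: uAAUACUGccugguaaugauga
hsa-miR-200a-3p: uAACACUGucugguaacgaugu
hsa-miR-429: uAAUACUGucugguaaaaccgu
The seed AAUACUG is shared by miR-200c, miR-200b and miR-429, and the seed AACACUG by miR-141 and miR-200a, so each cluster carries both seeds. The miR-200c141 pair lies on the forward strand of chromosome 12 (chr12:6963742-6963764 and chr12:6964155-6964176), and the miR-200ba429 trio on the forward strand of chromosome 1 (chr1:1167160-1167181, chr1:1167916-1167937 and chr1:1169055-1169076). Sites for these seeds in the transcripts of BMI1 and SUZ12 were not analysed here.

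The level of a gene is the log2 intensity of its probe set after RMA normalization by the authors, and a change is the level on an array minus the level on the control array of the same line. Arrays of the same line correlated at 0.978 to 0.995 and arrays of different lines at 0.885 at most, so changes were read within lines. ZEB1, a repressor of epithelial genes and a known miR-200 target, was lower than in the control of its line on all 9 construct arrays, with changes of -2.24 (MDST8 with both clusters) to -0.13 (MDST8 with miR-200ba429). It is among 6 known miR-200 targets taken as a check. On the MDST8 array with miR-200ba429, 3 of the 6 were higher and 3 lower, with a median change of -0.056. Their median change was -2.05 to -0.54 on the other construct arrays. The MDST8 array with miR-200ba429 thus showed little change in these targets as a set. CDH1, the epithelial cadherin, was at 5.30 to 6.01 on HUTU-80 construct arrays against 3.20 in the control and at 6.64 to 9.03 on those of NCI-H716 against 4.01, while in MDST8 it was at 3.03 to 3.77 against 3.14, under the background level of 5.43. Of 8 intestinal epithelial markers, 1 was above background in the HUTU-80 control, 1 in the MDST8 control and 6 in the NCI-H716 control. Of the other cell types, 0 of 4 endothelial markers and 0 of 4 immune markers were above background on any array, except the immune marker LYZ in NCI-H716, while 1 to 4 of 5 fibroblast markers lay above it. On both arrays with both clusters the 3′ minus 5′ difference of the ACTB control probes, a sign of RNA quality, was the highest of its line: 2.02 against 1.50 to 1.54 in MDST8, and 2.63 against 2.33 to 2.41 in NCI-H716.

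None of the 9 Polycomb genes passed the test in any comparison with control. Over all arrays BMI1 lay between 10.31 and 10.73 and SUZ12 between 10.07 and 10.86, well above background with every construct. JARID2, which helps to bring PRC2 to its sites, had the highest change with both clusters, 0.79 ± 0.25 (SE, n = 2 samples against 3 controls in the fit), and it rested on MDST8. Only 2 of these controls, those of MDST8 and NCI-H716, are of a line measured with both clusters. The HUTU-80 control enters that comparison only through the shared fit. With both clusters, 0 of the 9 genes passed, while 1214 of all 19774 genes did (6.14%, at an adjusted p under 0.05 by limma). With any construct (8 samples against 3), 0 of 9 passed and 0 of all genes (0%) by limma, and the same holds with miR-200c141 alone (0%) and with miR-200ba429 alone (0%), each with 3 samples against 3. The smallest adjusted p over all genes was 0.311, 0.117 and 0.769 in those 3 comparisons. At an unadjusted p under 0.05 the numbers over all genes were 1851 with any construct (9.36%), 1302 with miR-200c141 (6.58%), 1214 with miR-200ba429 (6.14%) and 4354 with both clusters (22%), and among the Polycomb genes they were 0, 0, 0 and 1, the 1 being JARID2. None of the 9 was above the control of its line on all 9 construct arrays (3.41% of all genes were) or below it on all of them (3.44%). The median absolute change of the 9 genes was 0.054 with any construct against 0.12 over all genes, and 0.23 with both clusters against 0.20 over all genes. The shares and medians over all genes include many genes under background, since 9206 to 9658 of the 19774 were above it on an array. They are therefore not taken from genes of like level, and no greater stability of the 9 genes is read from them. In bulk RNA, fewer cells with a transcript and less of it per cell cannot be told apart. The values here are of mRNA, and protein and mature microRNA were not read. Whether BMI1 or SUZ12 is a target of the constructs in these lines was therefore not tested.

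**Figure D1:**
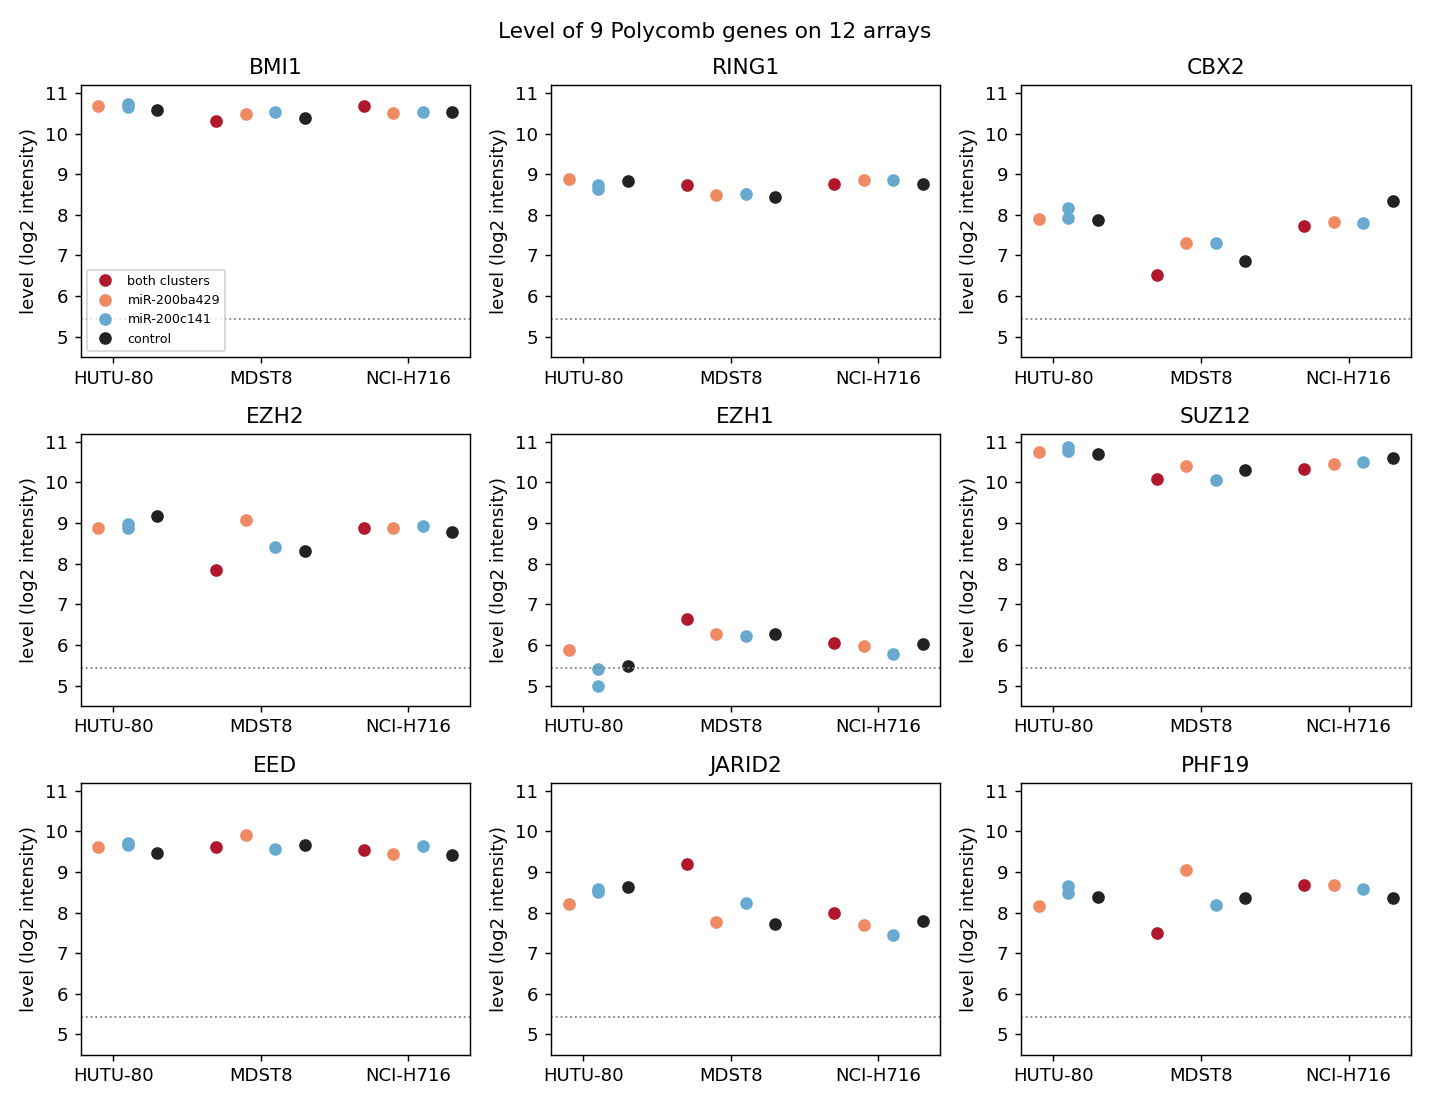
Level (log2 intensity, vertical axis) of the 9 Polycomb genes on the 12 arrays, by cell line (horizontal axis); points are single arrays, coloured by construct with control at the right of each line, and the dotted line is the background level of 5.43. BMI1 lay within 0.42 over all arrays, while in MDST8 JARID2 was highest with both clusters, and EZH2 and PHF19 were lowest with both clusters and highest with miR-200ba429.

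BMI1 is the PCGF subunit of canonical PRC1 that pairs with the RING ubiquitin ligases. The gene lies at chr10:22321099-22331706 (GRCh38.p14) and has 1 probe set on the array. In HUTU-80 its level was 10.68 with miR-200ba429, 10.65 and 10.73 with miR-200c141 (titled 1:3 and 1:5) and 10.59 in control. In MDST8 it was 10.31 with both clusters, 10.49 with miR-200ba429, 10.52 with miR-200c141 and 10.40 in control. In NCI-H716 it was 10.68 with both clusters, 10.50 with miR-200ba429, 10.54 with miR-200c141 and 10.54 in control. BMI1 was thus above the control of its line on 6 construct arrays and below it on 3, with changes of -0.090 to 0.14, and construct and control arrays overlapped. The fitted change with any construct was 0.053 ± 0.068 (SE; 95% confidence interval -0.095 to 0.20, limma adjusted p = 0.81). With miR-200c141, which carries the microRNA described to target BMI1, it was 0.072 ± 0.083 (interval -0.11 to 0.25, limma adjusted p = 0.911). It was 0.045 ± 0.083 with miR-200ba429 and 0.035 ± 0.095 with both clusters (interval -0.18 to 0.25, limma adjusted p = 0.877). The direction with both clusters rested on NCI-H716, since without that array the change was -0.12 (limma adjusted p = 0.562).

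RING1 is one of the RING ubiquitin ligases of PRC1 (chr6:33208500-33212716). With both clusters it was at 8.75 in MDST8 against 8.45 in control and at 8.77 in NCI-H716 against 8.77 in control. It was above the control of its line on 7 of 9 construct arrays, and both arrays below were those of HUTU-80 with miR-200c141, with changes of -0.11 and -0.20. Its fitted changes were 0.12 ± 0.13 with both clusters (limma adjusted p = 0.652) and 0.052 ± 0.094 with any construct (limma adjusted p = 0.868). A second probe set of RING1, at 7.22 to 7.82, was above control on 3 of 9 construct arrays, so the probe sets gave no common direction.

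CBX2 carries a chromodomain that binds H3K27me3 and compacts chromatin (chr17:79777311-79787983). HUTU-80 arrays gave 7.89 with miR-200ba429, 8.17 and 7.92 with miR-200c141 and 7.88 in control. MDST8 arrays gave 6.52 with both clusters, 7.31 with miR-200ba429, 7.31 with miR-200c141 and 6.86 in control. NCI-H716 arrays gave 7.72 with both clusters, 7.82 with miR-200ba429, 7.80 with miR-200c141 and 8.34 in control. All 3 NCI-H716 construct arrays therefore lay below their control, with changes of -0.62 to -0.52, while all HUTU-80 construct arrays lay above theirs, by 0.008 to 0.29. Each of these sets of changes rests on 1 control array. The fitted change with both clusters was -0.45 ± 0.22 (interval -0.95 to 0.039, limma adjusted p = 0.266), and its size was -0.21 without the NCI-H716 control and -0.65 without the MDST8 control. In the 2 arrays with both clusters CBX2 was lower than control in each.

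Among the PRC2 core subunits, EZH2 is the main H3K27 methyltransferase, known to be abundant in dividing cells (chr7:148807383-148884291). In HUTU-80 it was at 8.89 with miR-200ba429, 8.88 and 8.97 with miR-200c141 and 9.17 in control. In MDST8 it was at 7.85 with both clusters, 9.08 with miR-200ba429, 8.42 with miR-200c141 and 8.31 in control. In NCI-H716 it was at 8.87 with both clusters, 8.88 with miR-200ba429, 8.92 with miR-200c141 and 8.77 in control. EZH2 was thus below control on every HUTU-80 construct array and on the MDST8 array with both clusters, and above it on the other 5 arrays. Within MDST8 the array with both clusters was lowest and the one with miR-200ba429 highest. The fitted changes were -0.30 ± 0.24 with both clusters (interval -0.82 to 0.22, limma adjusted p = 0.512), 0.20 ± 0.21 with miR-200ba429 (limma adjusted p = 0.897), and 0.007 ± 0.19 with any construct (limma adjusted p = 0.993). Without the MDST8 array with both clusters, the change with both was 0.082, so its direction rests on that array.

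EZH1 is the paralogous methyltransferase known to be used by cells that do not divide (chr17:42700275-42745040). On its brightest probe set it was near background, above it on 10 of 12 arrays, with both exceptions on HUTU-80 arrays with miR-200c141 (5.40 and 4.98, against 5.47 in control). A second EZH1 probe set, at 5.44 to 6.31, was above background on 12 of 12 arrays, with 5.46 and 5.44 on that pair against 5.85 in control. With both clusters it was at 6.63 in MDST8 against 6.27 in control, and at 6.06 in NCI-H716 against 6.03 in control. The fitted change was 0.23 ± 0.21 with both clusters (limma adjusted p = 0.604) and -0.20 ± 0.19 with miR-200c141 (limma adjusted p = 0.882). On the brightest probe set the HUTU-80 pair differed by 0.41 for EZH1, the most among the 9 genes. Over all genes above background on both arrays of that pair, the 95th percentile of the difference was 0.413. EZH1 itself was under background on both, so it is not in that set. Differences of this size thus occur between arrays of the same line and construct, though the titles of this pair give unlike ratios.

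SUZ12 holds the PRC2 core together (chr17:31937007-32001038). The HUTU-80 levels were 10.74 with miR-200ba429, 10.78 and 10.86 with miR-200c141 and 10.71 in control. The MDST8 levels were 10.08 with both clusters, 10.40 with miR-200ba429, 10.07 with miR-200c141 and 10.30 in control. The NCI-H716 levels were 10.34 with both clusters, 10.47 with miR-200ba429, 10.51 with miR-200c141 and 10.60 in control. All NCI-H716 construct arrays lay below their control and all HUTU-80 construct arrays above theirs, and in MDST8 the constructs lay on both sides. With miR-200ba429, which carries the microRNA described to target SUZ12, the fitted change was -0.001 ± 0.089 (interval -0.20 to 0.20, limma adjusted p = 1). It was -0.068 ± 0.089 with miR-200c141 (limma adjusted p = 0.922) and -0.21 ± 0.10 with both clusters (interval -0.43 to 0.022, limma adjusted p = 0.276), where SUZ12 was lower than control on 2 of 2 arrays. Leaving out 1 line or sample kept the change with both clusters between -0.24 and -0.16. A probe set shared with the pseudogene SUZ12P1, which was not used because it cannot tell one from the other, was at 7.36 to 8.85 and below control on 7 of 9 construct arrays.

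EED reads H3K27me3 and stimulates the methyltransferase (chr11:86244753-86287615). With both clusters it was at 9.61 in MDST8 against 9.67 in control and at 9.55 in NCI-H716 against 9.42 in control. It was above control on 7 of 9 construct arrays, and its change with any construct was 0.11 ± 0.088 (limma adjusted p = 0.684). Both arrays below control were MDST8 arrays, with changes of -0.061 with both clusters and -0.093 with miR-200c141.

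JARID2 is the DNA-binding partner of the PRC2.2 form of the complex (chr6:15246069-15522042). In HUTU-80 it was at 8.21 with miR-200ba429, 8.57 and 8.51 with miR-200c141 and 8.63 in control. In MDST8 it was at 9.20 with both clusters, 7.77 with miR-200ba429, 8.25 with miR-200c141 and 7.71 in control. In NCI-H716 it was at 8.0 with both clusters, 7.70 with miR-200ba429, 7.44 with miR-200c141 and 7.79 in control. The MDST8 array with both clusters was the highest of all 12, 1.50 above its control, and the NCI-H716 array with both clusters was 0.21 above its own. A second JARID2 probe set above background gave 9.05 with both clusters and 7.50 in control in MDST8, a change of 1.55, and 7.64 with both clusters and 7.42 in control in NCI-H716. The fitted change with both clusters was 0.79 ± 0.25, or 1.72-fold (interval 0.23 to 1.35), with an unadjusted p of 0.0102 and a limma adjusted p of 0.0967. It was 0.20 without the MDST8 line (limma adjusted p = 0.693), 0.32 without the MDST8 array with both clusters (limma adjusted p = 0.612) and 0.50 without the MDST8 control (limma adjusted p = 0.309). Without the NCI-H716 array with both clusters it was 1.26 (limma adjusted p = 0.0148), and without the NCI-H716 line 1.31 (limma adjusted p = 0.0221), the only fits in which any of the 9 genes passed. Each of these leaves a single sample with both clusters, whose spread is assumed to be that of the other groups. The MDST8 array with both clusters also had the ACTB difference given above, and the part of RNA quality in the JARID2 value was not tested.

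PHF19 is a Polycomb-like partner of the PRC2.1 form (chr9:120855651-120904128). Its level in HUTU-80 was 8.17 with miR-200ba429, 8.49 and 8.66 with miR-200c141 and 8.37 in control. Its level in MDST8 was 7.51 with both clusters, 9.05 with miR-200ba429, 8.18 with miR-200c141 and 8.37 in control. Its level in NCI-H716 was 8.68 with both clusters, 8.68 with miR-200ba429, 8.59 with miR-200c141 and 8.37 in control. The order of the MDST8 arrays was that of EZH2 at both ends, lowest with both clusters and highest with miR-200ba429, and a second bright probe set of PHF19 gave changes of -0.69 and 0.89 on them. Another PHF19 probe set, at 5.79 to 7.17 and above background on 12 of 12 arrays, gave -0.31 and 0.68 there. In NCI-H716 that probe set gave the opposite direction, with -0.41 with both clusters and -0.19 with miR-200ba429, where the brightest gave 0.31 and 0.31. The fitted change was -0.33 ± 0.30 with both clusters (interval -0.99 to 0.32, limma adjusted p = 0.573) and 0.26 ± 0.26 with miR-200ba429 (limma adjusted p = 0.89). Without the MDST8 array with both clusters, the change with both was 0.24, the opposite direction.

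**Figure D2:**
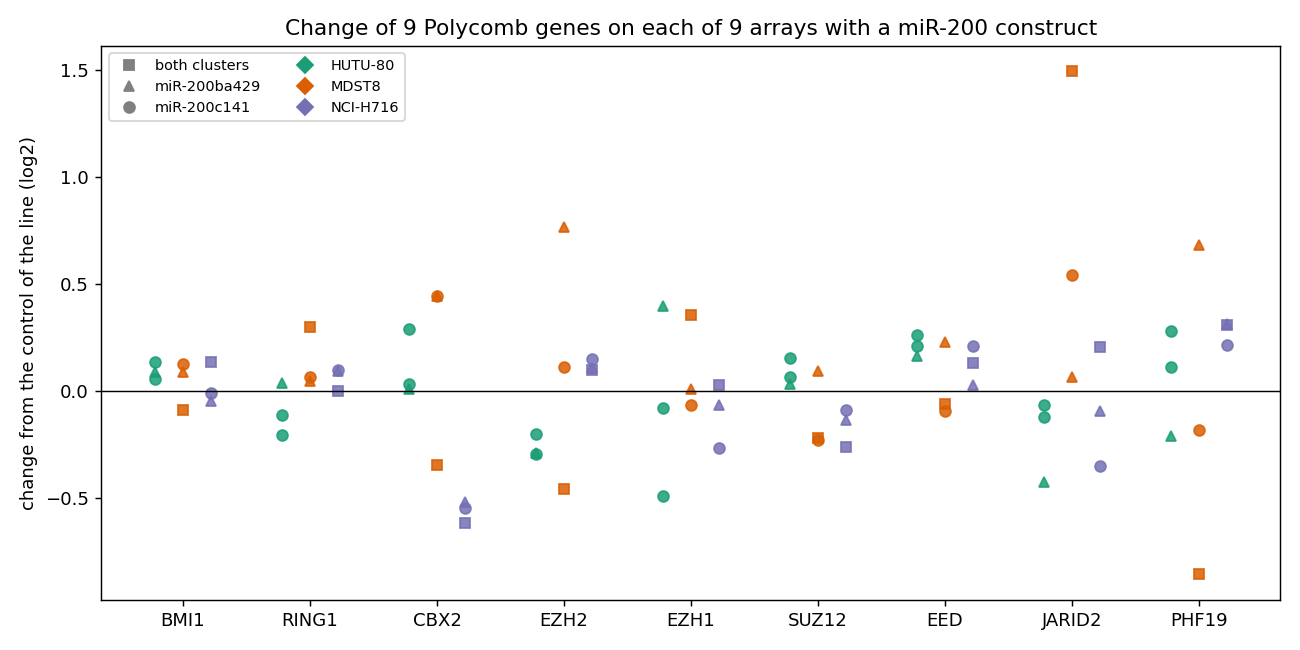
Change of each gene from the control of its line (log2, vertical axis) on the 9 construct arrays; colours are lines and shapes are constructs. BMI1 lay between -0.090 and 0.14 throughout, while the MDST8 array with both clusters held the highest point of the plot, JARID2 at 1.50, and the lowest, PHF19 at -0.86.

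**Figure D3:**
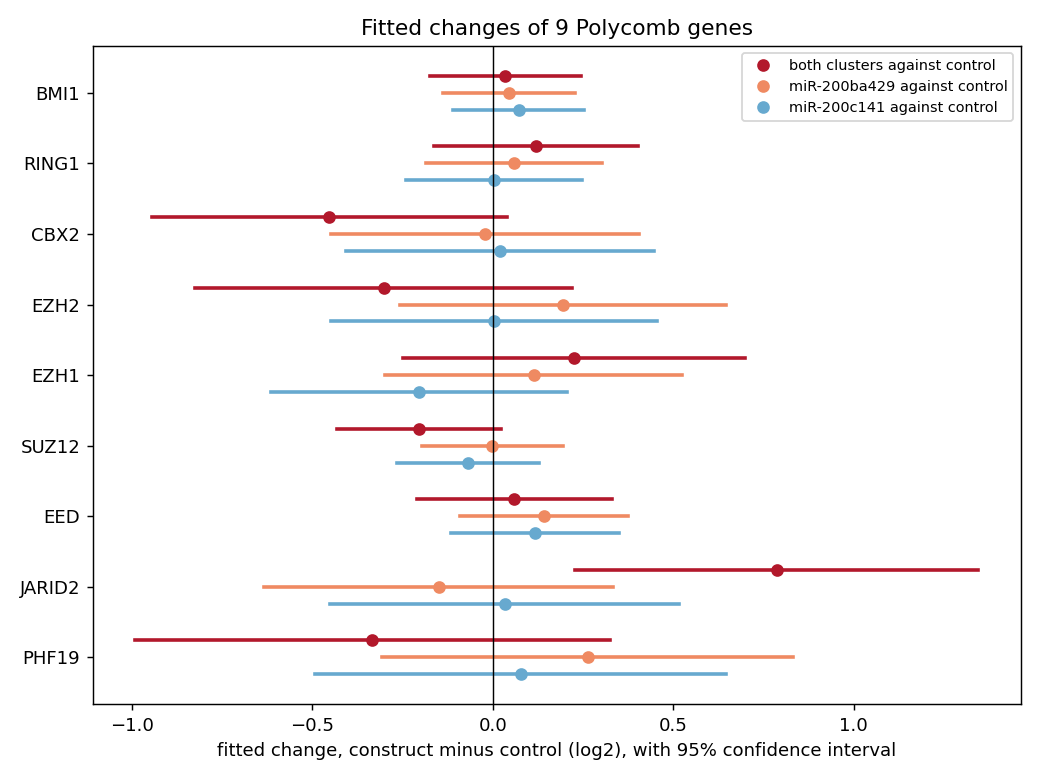
Fitted change (construct minus control, log2, horizontal axis) of each gene with both clusters, miR-200ba429 and miR-200c141; points are limma estimates and bars are 95% confidence intervals. All intervals include 0 except that of JARID2 with both clusters, which runs from 0.23 to 1.35; that estimate did not pass after adjustment over all genes.

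The lines differed in the level of several of these genes. SUZ12 averaged 10.77 ± 0.067 on HUTU-80 arrays, 10.48 ± 0.11 on NCI-H716 arrays and 10.21 ± 0.16 on MDST8 arrays (SD, n = 4 arrays each), and the HUTU-80 arrays did not overlap with those of the other lines, while those of NCI-H716 and MDST8 did. CBX2 averaged 7.97 ± 0.14 in HUTU-80 and 7.92 ± 0.28 in NCI-H716, which overlapped, and 7.00 ± 0.38 in MDST8, whose arrays all lay below both. JARID2 averaged 8.48 ± 0.19 in HUTU-80 and 7.73 ± 0.23 in NCI-H716, which did not overlap, while the MDST8 arrays (8.23 ± 0.69) overlapped with those of both other lines, and the MDST8 control lay below the NCI-H716 control. BMI1 averaged 10.66 ± 0.058 on HUTU-80 arrays, 10.56 ± 0.080 on NCI-H716 arrays and 10.43 ± 0.097 on MDST8 arrays, and the arrays of MDST8 lay below all those of HUTU-80 but overlapped with NCI-H716. Whether the change with the constructs differed between lines was tested by a moderated F over the interaction. None of the 9 genes passed (limma adjusted p = 1 for each, with 1 call in all genes, 0.00506%, and 987 at an unadjusted p under 0.05, 4.99%). The lines' changes were furthest apart for JARID2, by 0.96 (unadjusted p = 0.317), and CBX2, by 0.74 (unadjusted p = 0.215). HUTU-80 has no array with both clusters, so in this test the lines also differ in the constructs they hold. The spread used by the test comes from the differences between constructs within a line.

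The other subunits of the complexes, taken from lists by name, had 6 calls, all of them with both clusters. Of 21 other PRC1 subunits measured, 4 fell and 1 rose at an adjusted p under 0.05 by limma (over all genes 3.81% fell and 2.33% rose), and 15 had negative changes, with a median of -0.24 against 0 over all genes. PCGF2, the close paralogue of BMI1 known as MEL18, was at 8.18 with both clusters in MDST8 against 8.98 in control, and at 7.10 in NCI-H716 against 7.68 in control. Its fitted change was -0.71 ± 0.13 (limma adjusted p = 0.0143), and it lay below the control on all the other construct arrays too, with changes of -0.49 to -0.065. PCGF6, the PCGF subunit of a variant PRC1 form, was at 7.28 in MDST8 against 7.91 and at 6.10 in NCI-H716 against 7.12, a change of -0.88 ± 0.19 (limma adjusted p = 0.024). KDM2B, which brings variant PRC1 to CpG islands, was at 8.04 in MDST8 against 8.40 and at 7.03 in NCI-H716 against 8.08, a change of -0.72 ± 0.17 (limma adjusted p = 0.0307). PHC1, a polyhomeotic protein that links PRC1 units, was at 6.56 in MDST8 against 7.51. In NCI-H716 it was under background on all 3 construct arrays, at 4.29 with both clusters against 5.80 in control, and the fitted change was -1.12 ± 0.27 (limma adjusted p = 0.034). Against the background level, PHC1 fell by at least 0.375 in NCI-H716. PCGF5, another variant PCGF subunit, rose by 1.16 ± 0.29 (limma adjusted p = 0.0411), with 9.18 in MDST8 against 8.18 and 7.72 in NCI-H716 against 6.54.

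Of 7 other PRC2 subunits, 1 rose with both clusters and none fell (over all genes 2.33% rose and 3.81% fell). Negative changes were found for 5 of them, with a median over the 7 of -0.25 against 0 over all genes. The 1 was LCOR, the locus that also encodes the PRC2 partner PALI1, which was at 9.89 in MDST8 against 9.27 and at 9.60 in NCI-H716 against 9.07, a change of 0.53 ± 0.13 (limma adjusted p = 0.0362). Which product of the locus its probe set reads was not tested. The 5 with negative changes, RBBP7, AEBP2, MTF2, EPOP and RBBP4, had fitted changes of -0.38 to -0.15 and limma adjusted p of 0.0946 to 0.37. With any construct, with miR-200c141 and with miR-200ba429, none of the other subunits of either list passed, and neither did any other gene (0% of all genes in each).

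These 6 calls depended on single samples, as the 15 fits that leave out 1 line or 1 sample showed. PCGF2 lost its call without the HUTU-80 line, the MDST8 line, the NCI-H716 control or the MDST8 array with both clusters (limma adjusted p = 0.052 to 0.11, changes of -0.73 to -0.58). PCGF6 lost it in 6 of 15 fits, those without the HUTU-80 line or its control, the NCI-H716 line or its control, or either array with both clusters (0.0567 to 0.179). KDM2B lost it in 7, among them those without the NCI-H716 line (change -0.46, 0.242), its control or its array with both clusters, and those without the HUTU-80 line, its control or its miR-200ba429 array and without the NCI-H716 array with miR-200c141. PHC1 lost it in 10 and held it only without the HUTU-80 control, either HUTU-80 or the NCI-H716 array with miR-200c141, or the MDST8 array with miR-200ba429. PCGF5 lost it in 9 and held it only without the HUTU-80 line, the MDST8 control, the HUTU-80 or MDST8 array with miR-200ba429, the HUTU-80 array titled 1:3, or the NCI-H716 array with miR-200c141. LCOR lost it in 12 and held it only without the HUTU-80 array titled 1:3, the MDST8 array with miR-200c141 or the MDST8 array with miR-200ba429. The changes of all 6 kept their direction in each of these fits. Averaging the probe sets of a gene also ended the calls of PCGF2 (change -0.48, limma adjusted p = 0.0781), PCGF5 (0.0689) and LCOR (0.104). All 6 calls come from the arrays with both clusters, which had the highest ACTB difference of their line and received a second virus. The part of RNA quality or of the second virus in these calls was not tested.

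**Figure D4:**
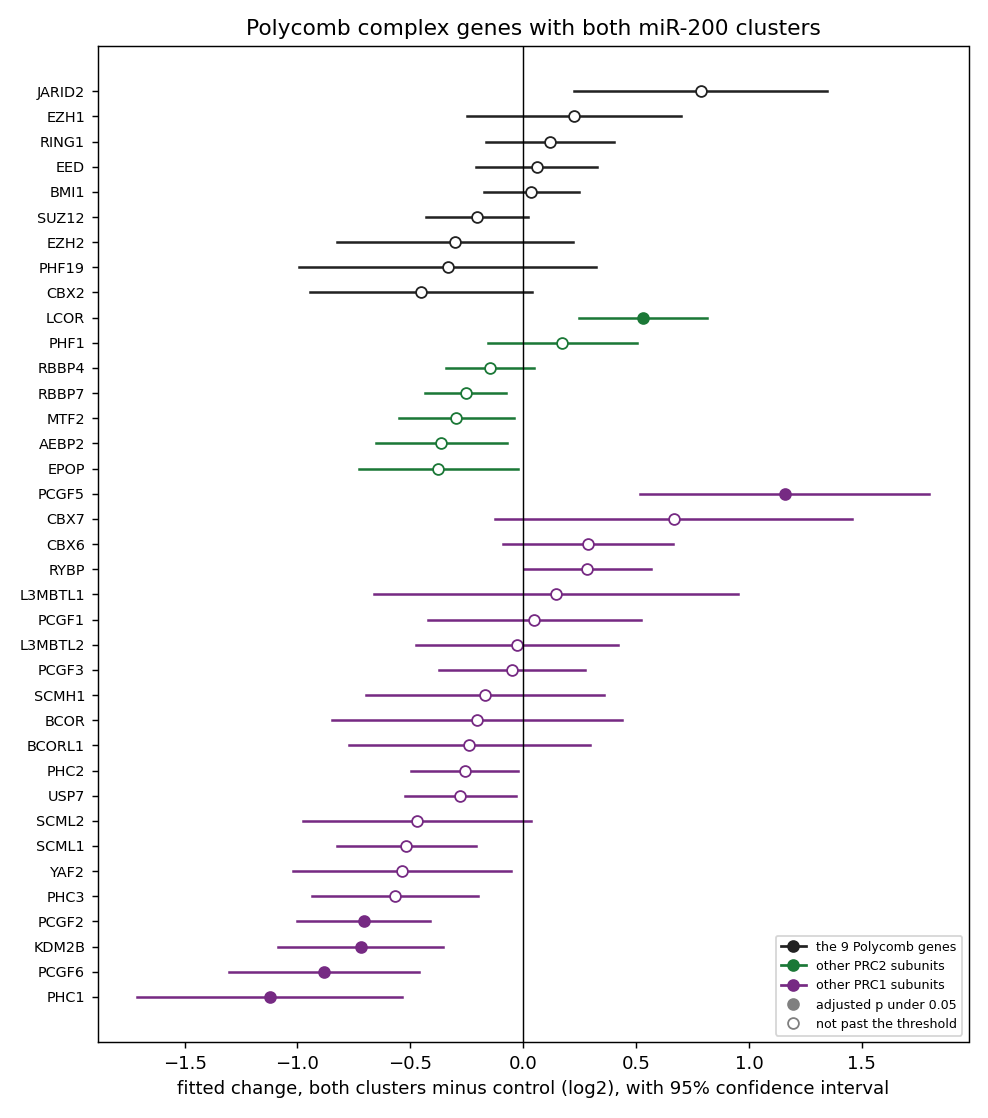
Fitted change with both clusters (both clusters minus control, log2, horizontal axis) of the 9 Polycomb genes (black), the 7 other PRC2 subunits (green) and the 21 other PRC1 subunits (purple); bars are 95% confidence intervals and filled points passed an adjusted p under 0.05. The filled points are LCOR and PCGF5 to the right of 0 and PCGF2, KDM2B, PCGF6 and PHC1 to the left.

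Genes that oppose Polycomb, and genes known as Polycomb-repressed in other cells, were read as a further description. Of 7 antagonists measured (the H3K27 demethylases KDM6A and KDM6B, the ASXL partners of the H2A deubiquitinase, and the methyltransferases KMT2A and KMT2D), 0 passed with both clusters, against 6.14% of all genes, with a median change of 0.19. KMT2D had 0.49 ± 0.17 (limma adjusted p = 0.11) and KMT2A -0.41 ± 0.17 (limma adjusted p = 0.186). Of 14 repressed genes measured, 1 rose and none fell (over all genes 2.33% rose and 3.81% fell), with a median of 0.046. Of these 14, 8 were above background in MDST8 with both clusters and 7 in its control. In NCI-H716 3 were above it with both clusters and 1 in control. The median thus includes many genes under background, and no lack of response is read from it. IGFBP3, which binds insulin-like growth factors, was at 8.38 with both clusters in MDST8 against 5.24 in control and at 6.14 in NCI-H716 against 4.38, with both of these controls under background. Against the background level, its change was at least 2.95 in MDST8 and at least 0.71 in NCI-H716. The fitted change of IGFBP3, from the measured values, was 2.26 ± 0.49 (limma adjusted p = 0.0237), lost without the MDST8 line, the MDST8 or NCI-H716 control, or the MDST8 array with both clusters (limma adjusted p = 0.0685 to 0.193). The IGFBP3 call was also lost with the mean of all probe sets (1.95, limma adjusted p = 0.0604), with no variance trend (0.0574), with only the 2 groups compared (0.0905) and with no line term (0.999). The cell cycle inhibitors of the INK4 locus, the best known targets of BMI1, did not pass. CDKN2A had a fitted change of -0.20 ± 0.17 (limma adjusted p = 0.543) and CDKN2B one of 0.86 ± 0.42 (limma adjusted p = 0.262), with CDKN2B at 8.20 in MDST8 against 6.65 in control and at 5.34 in NCI-H716 against 5.25, both under background.

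EZH2 is known to follow proliferation, so the 9 genes were set beside 20 proliferation genes (DNA replication and mitosis genes). With both clusters 9 of the 20 fell and none rose (over all genes 3.81% fell and 2.33% rose), and all 20 had negative changes (median -0.47 against 0 over all genes). The largest of the 9 was that of MCM2, part of the replicative helicase, at -1.12 ± 0.21 (limma adjusted p = 0.0125). By array, the median change of the 20 genes was -0.67 in MDST8 with both clusters, 0.30 in MDST8 with miR-200ba429 (20 of 20 higher) and -0.13 in MDST8 with miR-200c141. In NCI-H716 it was -0.27 with both clusters, -0.15 with miR-200ba429 and -0.014 with miR-200c141, and in HUTU-80 it was -0.40 with miR-200ba429 and -0.13 and -0.020 with miR-200c141. The MDST8 arrays at which EZH2 and PHF19 were lowest and highest were thus also the lowest and highest for this list.

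Over the 12 arrays, with each line centred on its own mean, the level of the proliferation genes correlated with EZH2 at r = 0.85, with PHF19 at 0.83, with SUZ12 at 0.76 and with CBX2 at 0.66. It correlated with EED at 0.35 and with BMI1 at 0.24, and with EZH1 at -0.56, RING1 at -0.61 and JARID2 at -0.75. These values describe 12 arrays that share 3 lines, their controls and the normalization, and the 2 extreme MDST8 arrays weigh on them. In NCI-H716 every construct array had EZH2 (0.10 to 0.15) and PHF19 (0.22 to 0.31) above control. The median change of the proliferation genes was negative on each of those arrays (-0.27 to -0.014). In HUTU-80 SUZ12 was above control on every construct array (0.035 to 0.16), while that median was again negative on each. Among the 9 genes themselves, EZH2 and PHF19 were most alike (r = 0.89), and BMI1 and SUZ12 were not (r = 0.032). The part of proliferation, and of the ACTB difference on the arrays with both clusters, in the EZH2, PHF19 and JARID2 values was not tested. Nor was the part of the ACTB difference in the calls of IGFBP3 and the proliferation genes with both clusters.

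**Figure D5:**
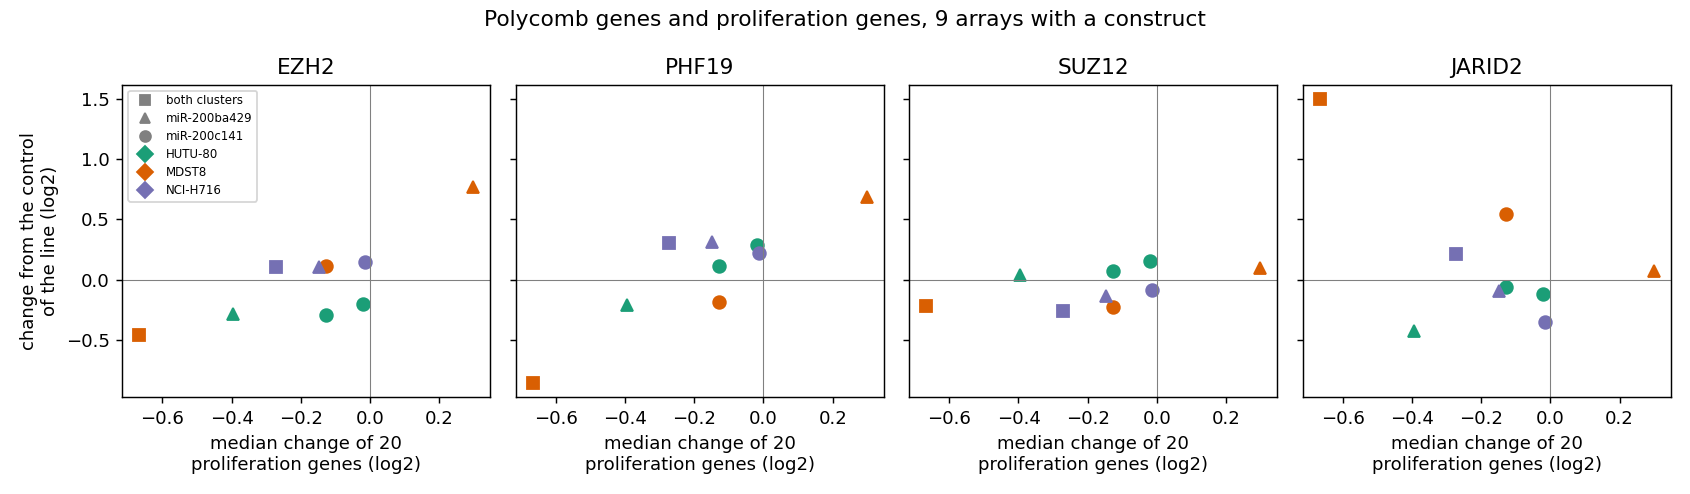
Change from the control of the line (log2, vertical axis) of EZH2, PHF19, SUZ12 and JARID2 against the median change of 20 proliferation genes (log2, horizontal axis) on the 9 construct arrays; colours are lines and shapes are constructs. The MDST8 array with both clusters is at the far left (-0.67) and the MDST8 array with miR-200ba429 at the far right (0.30), and EZH2 and PHF19 are lowest on the one and highest on the other.

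By the same measure, over 11166 genes, the closest to SUZ12 were UCHL5 (r = 0.96), ZNF584 (0.95), RUNDC3B (0.94), RAB23 (0.94) and PRPF31 (0.93). Those closest to BMI1 were SH2D3C (0.87), GTF2I (0.87), ARHGAP45 (0.87), MED17 (0.86) and IGDCC3 (0.86), for a gene whose line-centred level had an SD of 0.072. The closest to EZH2 were DEPDC1 (0.97), HMMR (0.96), CDCA2 (0.96), ESPL1 (0.94) and LIN9 (0.94), and to PHF19 CENPM (0.95), MKI67 (0.94), E2F8 (0.94), RRM2 (0.94) and ERCC6L (0.93), of which MKI67 and RRM2 are on the proliferation list. JARID2 was closest to C12orf76 (0.96), NELL2 (0.96) and CCNY (0.95). With so many genes and 12 arrays, high values arise for any gene, and no function is read from them.

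Promoters are shown for 3 genes whose line-centred levels correlated with the proliferation genes. They hold letters of the kind bound by E2F, the cell cycle transcription factor family. The changes went the other way for EZH2 and PHF19 in NCI-H716 and for SUZ12 in HUTU-80, as given above. The letters searched were TTTCGCGC, TTTGGCGC and TTTCCCGC on both strands, and they were chosen after the values were seen. Each window is 100 bases of a RefSeq promoter (GRCh38.p14), on the strand of the gene, with the match in capitals. EZH2 is chr7:148884262-148884361 (minus strand), PHF19 chr9:120877287-120877386 (minus strand) and SUZ12 chr17:31936772-31936871 (plus strand).
EZH2: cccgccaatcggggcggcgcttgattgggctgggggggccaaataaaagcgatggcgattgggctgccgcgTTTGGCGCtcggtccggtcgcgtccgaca
PHF19: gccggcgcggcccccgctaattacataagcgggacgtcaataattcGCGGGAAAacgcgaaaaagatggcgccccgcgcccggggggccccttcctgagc
SUZ12: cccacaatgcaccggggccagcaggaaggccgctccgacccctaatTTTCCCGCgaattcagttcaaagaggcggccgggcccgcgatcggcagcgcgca
Such letters were found in 3 of the 13 promoters matched to the listed genes and in 961 of all 35116 promoters of the same length (2.74%). EZH2 and PHF19 each have 2 matched promoters, and the promoter not shown of each held no match. The EZH2 match begins at base 2 from the transcription start, and the PHF19 window lies inside the span given above for that gene. RNF2 is among the genes matched, and CBX2, which also correlated with the proliferation genes, was not searched here. The E-box letters CACCTG or CAGGTG, of the kind ZEB1 binds, were in 0 of the 13 and in 20.6% of all promoters. A match describes the letters and is not a bound site, and the part of E2F in the values of these genes was not tested.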

How the data were processed

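RNA of 3 established cell lines was hybridised to 12 arrays in 4 groups. The authors deposited a log2 intensity for each probe set. They were computed with RMA (background correction, quantile normalization and summary over probes), per the submitters' processing notes, whose version was not in the labels, and entered the fits unchanged. Such normalization sets the arrays to a common distribution (medians of 3.60 to 3.66), so a shift of all genes would not be seen.

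Of 54715 probe sets, 102 were controls, 864 named several genes and were left out, and 40920 named 1 gene; 40864 matched RefSeq by gene ID. Each of 19774 genes was read from its probe set of highest mean. Background was the highest of 23 nonspecific control probe sets on any array, 5.43. All genes were fitted in limma 3.58.1 (R 4.3.3, with the data.table package, version 1.17.8) with cell line as a fixed term, moderation with a trend and Benjamini-Hochberg adjustment, at a threshold of 0.05, two-sided. The HUTU-80 pair with miR-200c141 was averaged, leaving 11 samples, and residual degrees of freedom were 5 (4 groups, and lines) or 7 (any construct). Samples of a line are paired through that term. Precision is limited by the number of arrays. The fits were tested on simulated data. Alternatives were the mean of all probe sets, no dim genes, centred arrays, no trend, the HUTU-80 arrays apart or 1 left out, no line term, only the groups compared, and leaving out each line and sample.

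The named genes are all listed members, every gene of the other Polycomb lists past the threshold, and the nearest 5 by line-centred correlation. The members, lists and rules were chosen with earlier results of these data known. RNF2, and members of the other lists without a probe set naming them alone, were not analysed here.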

Additional observations from a re-analysis of the deposited data

Results flagged for a closer look

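For 4 of the 9 genes every construct array of one line lay on one side of its control and every construct array of another line on the other. SUZ12 had a mean change of 0.086 in HUTU-80 and -0.16 in NCI-H716. EZH2 had -0.26 in HUTU-80 and 0.12 in NCI-H716. JARID2 had -0.20 in HUTU-80 and 0.70 in MDST8, but its second probe set above background had changes of -0.13, 0.16 and 0.062 in HUTU-80, on both sides of the control. CBX2 had 0.11 in HUTU-80 and -0.56 in NCI-H716. These pairs of lines were not tested by themselves, and the test over all 3 lines gave a limma adjusted p of 1 for each of the 4 genes. The changes of a line share its 1 control array, so an error in that array moves all of them the same way. The HUTU-80 means also lack an array with both clusters, which the other lines have. In MDST8 the JARID2 mean is of 1.50 with both clusters, 0.067 with miR-200ba429 and 0.54 with miR-200c141.

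EED with miR-200c141 was at -0.093 from its control in MDST8, while the other 3 arrays with that construct were at 0.21 to 0.26. The gap was 0.854 of the range, above the 95% critical value of Dixon's test for 4 arrays. Of these 4 arrays 2 are the HUTU-80 pair, and 9 groups were tested, of which chance flags about 1 in 20.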

How the results depend on the processing

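Of 981 values of the 9 genes under alternatives, 2 had an adjusted p under 0.05 by limma, both for JARID2 with both clusters and given above, and 80 had the opposite sign, none of them from a change above 0.334 in size. The cause was not tested. The 981 values include 162 for the difference between lines, which are spreads and cannot change sign. Fits with no trend or no dim genes leave a change as it was. Leaving out the array titled 1:5 is counted both by itself and among the left-out samples. The share with the opposite sign is therefore no measure of stability. With no replicate block (the line term left out), 0 genes were called for both clusters (1214 with the block), BMI1 had -0.018 with both clusters and EZH2 -0.023 with any construct; 0 other PRC1 subunits fell and 0 rose, and 0 other PRC2 subunits rose. Fitting only the 2 groups compared gave 19 genes, with 0, 0 and 0 of these subunits, and 4 genes with miR-200c141. With no variance trend 679 genes were called, 2 PRC1 subunits fell, 0 PRC1 and 0 PRC2 subunits rose. With the mean of all probe sets 662 were called, with 0 PRC1 and 0 PRC2 subunits rising; without the HUTU-80 array titled 1:5 these were also 0 and 0.

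Opposite signs with the mean of all probe sets were 0.020 for CBX2 with any construct, -0.017 for EED, 0.004 for JARID2 and 0.074 for SUZ12 with miR-200ba429, and 0.018 for EZH1 and -0.017 for RING1 with miR-200c141. With the HUTU-80 arrays entered separately, EZH1 had -0.019 and EZH2 -0.00093 with any construct, RING1 had -0.018 with miR-200c141, and 3 genes were called with miR-200c141. Without the array titled 1:5, EZH2 had -0.00011 with any construct and -0.011 with miR-200c141. The 1 gene called for the difference between lines became 3 with the mean of probe sets, 5 with centred arrays, 0 with no trend, 14 with the HUTU-80 arrays separate and 7 without the array titled 1:5.

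Leaving out 1 line or sample gave these ranges, lowest to highest. With any construct they were -0.26 to 0.14 for CBX2, -0.071 to 0.080 for EZH1, -0.099 to 0.13 for EZH2, -0.16 to 0.31 for JARID2, -0.068 to 0.18 for PHF19, and 0 to 8 genes called. With both clusters they were -0.12 to 0.19 for BMI1, -0.021 to 0.16 for EED, -0.70 to 0.082 for EZH2, -0.94 to 0.24 for PHF19, -0.051 to 0.28 for RING1, 0 to 1 of the 9 genes called, 0 to 5 PRC1 subunits that fell, 0 to 1 that rose, 0 to 1 PRC2 subunits that rose, and 362 to 1680 genes called. The number of genes called was 362 without the HUTU-80 line, 634, 759 and 383 without the HUTU-80, MDST8 and NCI-H716 controls, and 477 without the MDST8 array with both clusters. With miR-200ba429 they were -0.26 to 0.23 for CBX2, -0.048 to 0.21 for EZH1, -0.11 to 0.44 for EZH2, -0.40 to 0.005 for JARID2, -0.088 to 0.53 for PHF19, -0.081 to 0.066 for SUZ12, and 0 to 6 genes called. With miR-200c141 they were -0.19 to 0.30 for CBX2, -0.085 to 0.19 for EZH2, -0.22 to 0.22 for JARID2, -0.065 to 0.21 for PHF19, -0.061 to 0.084 for RING1, -0.16 to 0.027 for SUZ12, and 0 to 22 genes called. For the difference between lines 0 to 31 genes were called. That difference could not be fitted without the line term or without a control array. EZH1 lay near background, and the signal of the other 8 genes was well above it on all arrays.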
